A study of Mus musculus with 3 samples.

Results

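The genes described here are 10 genes of the actin cytoskeleton and of cell motility: fascin (*Fscn1*), the MARCKS proteins (*Marcks*, *Marcksl1*), the cytoplasmic actins (*Actb*, *Actg1*), the thymosins (*Tmsb4x*, *Tmsb10*), cofilin (*Cfl1*), coronin 1A (*Coro1a*) and vimentin (*Vim*). They were listed by name, with no threshold on their counts, and are 10 of the 32285 genes in the count matrices. A list of 115 further genes of actin assembly, turnover, cross-linking, contraction and adhesion was followed beside them. Actin filaments grow from monomers that thymosins hold in reserve, cofilin severs them and coronin helps to recycle them, while fascin packs them into the stiff bundles of cell protrusions. MARCKS proteins bind actin and acidic lipids at the plasma membrane, and vimentin forms intermediate filaments, a separate network. Dendritic cells rearrange this machinery when they mature and turn from sampling tissue to migrating towards lymph nodes, and fascin is widely used as a marker of mature dendritic cells.

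The data come from 3 droplet-based scRNAseq libraries, 1 per genotype, of pre-cDCs (progenitors), cDC1s and cDC2s (the conventional dendritic cells of type 1 and type 2). These cells had been sorted as CD45+ Lineage- CD11c+ MHCII+ CD88- cells from MCA205 LA-OVA tumours, a transplanted mouse fibrosarcoma that carries the antigen OVA, taken on day 5 from both flanks. The mice were WT (C57BL/6J), sGSN-/-, which lack secreted gelsolin, an actin-severing protein of the blood, and sGSN-/-Clec9a-/-, which also lack DNGR-1, the cDC1 receptor for actin filaments of dead cells. All mutants were backcrossed to C57BL/6J and had received the tumour with no other treatment named in the labels. Each library is a pool of males and females aged 6 to 20 weeks (25 and 12 in WT, 15 and 16 in sGSN-/-, 10 and 17 in sGSN-/-Clec9a-/-), and no genotype was sequenced in replicate. Values are given below in the order WT, sGSN-/-, sGSN-/-Clec9a-/-. The libraries held 12763, 8173 and 9273 barcodes with 176578136, 109270958 and 113411930 unique molecular identifiers (UMIs), each of which stands for 1 captured transcript. A deposited table assigned 2316, 1712 and 1778 of these barcodes to 12 clusters of cDC1s, which summed to 32676177, 23563047 and 21473550 UMIs with a median of 14092, 14150 and 12231 UMIs per cell. Any pair of libraries shared 26 to 28 barcodes, of which 2, 2 and 3 were cDC1s in both libraries of a pair, and 0 were shared by all libraries. A level in CPM (counts per 1e6 UMIs) gives the UMIs of a gene relative to all UMIs of a class of cells, and where a mean is shown its SD (n = 3 libraries) also holds whatever differed between the genotypes.

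The targeted genes served to check the labels. *Clec9a* (ENSMUSG00000046080, chr6:129408862-129424763, plus strand), which encodes DNGR-1, gave 5502, 3970 and 2 UMIs over all cDC1s, so that the library labelled sGSN-/-Clec9a-/- was close to 0. *Gsn* (ENSMUSG00000026879, chr2:35256380-35307892, plus strand), the gene of gelsolin, was counted at 152, 169 and 167 CPM, but the secreted form is not separated from the others in counts per gene, so *Gsn* checks nothing here. The 8 cDC1 markers (*Xcr1*, *Clec9a*, *Cadm1*, *Irf8*, *Batf3*, *Wdfy4*, *Naaa*, *Itgae*) summed to 1631, 1559 and 1814 CPM in cluster 8, with *Irf8* the most abundant, and to 3922, 3869 and 3885 CPM in the cDC1s outside it, with *Naaa* the most abundant. All 8 had UMIs in cluster 8 except *Clec9a* in the sGSN-/-Clec9a-/- library. Coordinates are those of GRCm38 (mm10).

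The 12 clusters fall into early (4 and 1), resting (5, 2, 3, 6 and 0) and activated cDC1s (7, 8, 9 and 10) and a cluster 11 with a high mitochondrial share. Cluster 8, with 84, 114 and 57 cells and 1032186, 1270403 and 515307 UMIs, is the activated cluster marked by *Ccr7*, the chemokine receptor for migration to lymph nodes, and *Fscn1* has been used to describe it. The levels of the 10 genes by cluster are therefore a description, and neighbours in an order of levels are said to overlap where the ranges of their 3 libraries do. Together the 10 genes took 7.01 ± 0.358% of all UMIs in cluster 8, 5.56 ± 0.118% in the cDC1s outside it and 1.99 ± 0.177% in cluster 11, whose cells were shallow, with a median of 2004, 2506 and 2478 UMIs. Among the other clusters this share ran from 4.34 ± 0.0728% in cluster 6 to 6.29 ± 0.0512% in cluster 1.

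*Fscn1*, which bundles actin, was counted at 1078, 874 and 469.6 CPM in cluster 8, with the sGSN-/-Clec9a-/- library lowest. The mean there was 807 ± 309.7 CPM, and the next cluster in order was cluster 5 with 0.949 ± 1.08 CPM, where the sGSN-/-Clec9a-/- library had no UMI. Clusters 9, 10 and 11 had no *Fscn1* UMI in any library, and the ranges of all clusters other than cluster 8 overlapped. *Marcks* was highest in cluster 8 as well, at 1076 ± 42.5 CPM, apart from the next clusters, cluster 9 with 744 ± 32.2 CPM and cluster 6 with 736 ± 43.8 CPM, which overlapped. It then went down over cluster 10 (524 ± 69.2 CPM), a run of cluster 2 (430.3 ± 21.3 CPM), cluster 11 and the resting clusters 3 and 0 (413 ± 8.94 CPM), and then clusters 7 (363 ± 29.99 CPM) and 5 (345 ± 21.5 CPM). The early clusters 4 (288 ± 8.19 CPM) and 1 (237 ± 12.3 CPM) were lowest, each apart from its neighbours. *Marcksl1* was at 691 ± 148 CPM in cluster 8, which overlapped cluster 9 (469 ± 82.2 CPM), and both stood apart from cluster 6 (120.4 ± 33.7 CPM) and the rest. From cluster 6 down to cluster 5 (39.2 ± 8.56 CPM) each neighbour overlapped the next, and clusters 1 (20.8 ± 3.59 CPM) and 11 (19.6 ± 23.8 CPM) were lowest.

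*Actb*, which with *Actg1* encodes the actins of non-muscle cells, was at 19795 ± 1625 CPM in cluster 8, above and apart from clusters 7 (16776 ± 1003 CPM) and 10 (16657 ± 555 CPM), which overlapped. All clusters from 1 (14481.5 ± 63.3 CPM) to 3 (13013 ± 716 CPM) formed a run of overlapping neighbours, and cluster 11 lay apart at 6516 ± 1002.5 CPM. *Actg1* went from 6581 ± 423 CPM in cluster 8 to 5196 ± 248 CPM in cluster 2, with every neighbour in that run overlapping, before cluster 11 at 2643 ± 353 CPM. For *Tmsb4x*, whose product binds actin monomers, cluster 8 (34532 ± 985 CPM) and the early cluster 1 (33664 ± 1578 CPM) overlapped at the top, and cluster 1 was apart from cluster 5 (28383 ± 1889.8 CPM). The low end of *Tmsb4x* was cluster 6 with 17262.5 ± 58.1 CPM and cluster 11 with 6099.6 ± 744 CPM, each apart from its neighbours. *Tmsb10*, the other thymosin, had another order, with the early cluster 4 first (7321 ± 1192 CPM), cluster 10 next (6161 ± 608 CPM) and cluster 8 in place 10 (2931 ± 205 CPM), overlapping clusters 9 (3289 ± 549 CPM) and 6 (2532 ± 270.1 CPM). In every cluster but cluster 11 the WT library held the highest *Tmsb10* value.

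*Cfl1*, which severs filaments, went from 1499.7 ± 154 CPM in cluster 8 to 1211 ± 64.3 CPM in cluster 6 with every neighbour overlapping, and cluster 11 lay apart at 629 ± 174 CPM. *Coro1a*, a coronin of leukocytes, was highest in the early cluster 4 (1394 ± 93.4 CPM), followed by clusters 5 (1249.8 ± 61.1 CPM), 1 (1221 ± 20.9 CPM) and 3 (1141 ± 58.8 CPM). It was lowest in cluster 8, at 610.4, 614 and 586 CPM, apart from cluster 6 with 906 ± 27.4 CPM, so that the 3 libraries of cluster 8 lay below every library of every other cluster. *Vim* was highest in cluster 4 (3378 ± 497 CPM), apart from cluster 3 (2341 ± 186 CPM). Cluster 8 came in place 9 for *Vim* with 1557 ± 136 CPM and overlapped its neighbours, clusters 2 (1634 ± 158 CPM) and 6 (1503 ± 152 CPM).

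**Figure D1:**
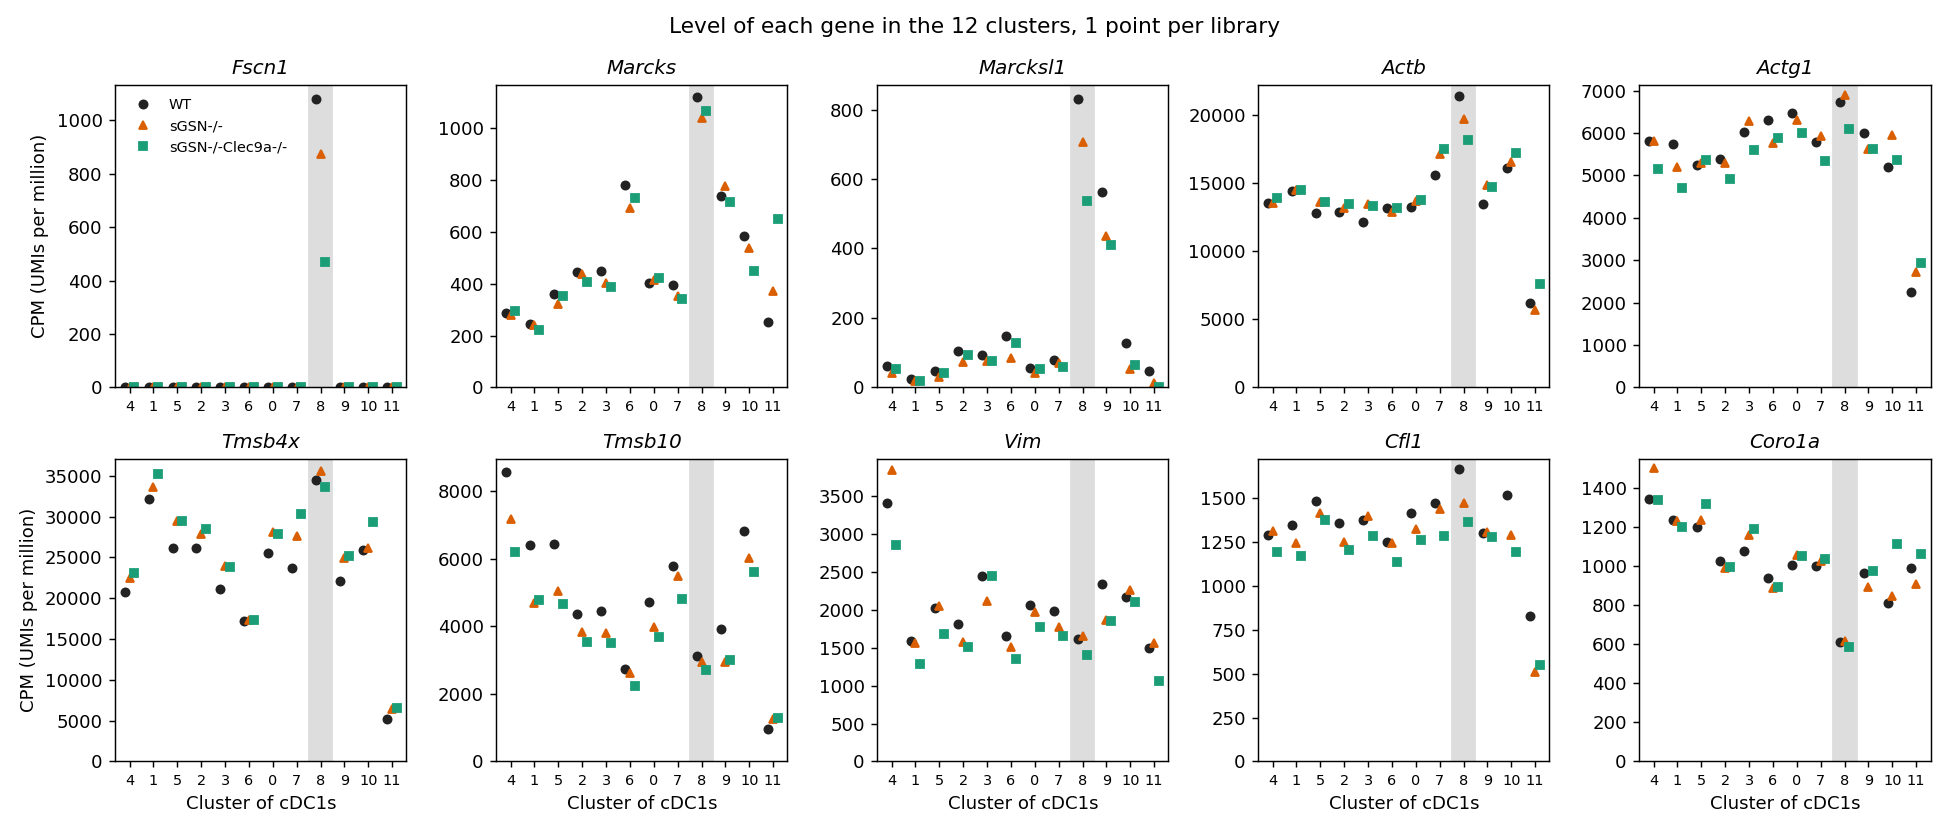
CPM (vertical axis, from 0) of each of the 10 genes in the 12 clusters of cDC1s (horizontal axis, early, resting, activated and cluster 11), with 1 point per library and cluster 8 shaded grey. Cluster 8 holds the highest *Fscn1*, *Marcks* and *Actb* points and the lowest *Coro1a* points, and its *Marcksl1* and *Tmsb4x* points overlap those of cluster 9 and cluster 1.

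Cluster 8 was then set against the other cDC1s (2232, 1598 and 1721 cells, median 14142.5, 14269.5 and 12286 UMIs against 12310.5, 11035.5 and 8459 in cluster 8), with the UMIs summed per library and class. Of the 10 genes, 7 were higher and 2 lower past an adjusted p of 0.05 in edgeR's quasi-likelihood fit, beside 41.7% of the 10964 genes fitted (21.3% higher and 20.4% lower). The clusters had been called on these counts, so nothing is read from that count. Log2 fold changes are fitted values, here and below given ± their standard error. *Fscn1* gave 1113, 1110 and 242 UMIs in cluster 8 and 24, 12 and 2 in the other cDC1s, or 1078, 874 and 469.6 against 0.758, 0.538 and 0.0954 CPM, and passed the filter on low counts only through cluster 8, so that it had to differ here. Over the summed libraries this is a ratio of 1724 (95% counting interval 1253 to 2442), and the fitted log2 fold change was 10.81 ± 0.36. *Marcks* was at 1123, 1039.8 and 1065 against 419, 382 and 395 CPM, with libraries that did not overlap and a log2 fold change of 1.60 ± 0.10. *Marcksl1* was at 829, 708 and 536 against 90.1, 59.5 and 73.2 CPM, again without overlap, with a log2 fold change of 3.39 ± 0.16. For the actins and the thymosin *Tmsb4x* the libraries of cluster 8 lay above those of the other cDC1s as well, without overlap. *Actb* was at 21441, 19752 and 18191 against 13367, 14063 and 14131 CPM (log2 fold change 0.68 ± 0.10), and *Actg1* at 6739, 6902 and 6101 against 5874, 5735 and 5368 CPM (0.39 ± 0.10). *Tmsb4x* was at 34476, 35545 and 33576 against 24773, 27427.5 and 27664 CPM, a log2 fold change of 0.54 ± 0.10. For *Cfl1* the ranges overlapped, with 1666, 1470.4 and 1362 against 1377, 1323 and 1239 CPM and a log2 fold change of 0.36 ± 0.10.

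Lower in cluster 8 were *Tmsb10*, at 3121, 2958 and 2713 against 5258, 4538 and 4099 CPM (log2 fold change -0.49 ± 0.11), and *Coro1a*, at 610.4, 614 and 586 against 1087, 1129.9 and 1114 CPM (-0.71 ± 0.10). Their libraries did not overlap between the classes. *Vim*, at 1619.9, 1651 and 1401 against 2099, 2009 and 1789.9 CPM, was lower in each library but had a log2 fold change of -0.17 ± 0.10 in the fit and was the 1 member not past the threshold. These values carry a choice of scale, since without TMM factors the median log2 fold change of all genes moved from -0.09 to -0.25 and the share of higher calls from 51.02% to 38.5%, *Actg1* (0.22) and *Cfl1* (0.19) were no longer past the threshold and *Vim* (-0.33) was. Without the sGSN-/- library *Actg1* (0.32), *Tmsb4x* (0.50) and *Cfl1* (0.34) were not past it, at log2 fold changes near those of all 3 libraries, which left 6 of the 10 genes. *Cfl1* was not past it without the WT library (0.30) or without the filter on low counts (0.25) either. Markers of other cells moved with cluster 8 in the WT library, where the 6 macrophage genes summed to 558 CPM with *Apoe* at 256 CPM and *Mertk* at 0, against 43.3 and 67.9 CPM in the others and 53.4, 35.3 and 46.95 CPM in the cDC1s outside it. With cells carrying at least 3 UMIs of such markers left out, 9 of the 10 genes were past the threshold as before, with *Fscn1* at a log2 fold change of 11.14, *Marcks* at 1.63 and *Coro1a* at -0.76.

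Cluster 8 was also compared with other activated clusters, cluster 10 (21, 27 and 28 cells) and cluster 9 (67, 40 and 55 cells). Against cluster 10, 6 of the genes were higher and 1 lower, beside 35.0% of the 4229 genes fitted (18.8% higher and 16.2% lower), and against cluster 9, 7 were higher and 1 lower, beside 38.2% of the 6144 genes fitted (20.9% higher and 17.3% lower). As the clusters fixed these contrasts, nothing is read from the counts. *Fscn1* had 0 UMIs in both clusters, so that with a floor of 3 counts over the summed libraries it was at least 259.9-fold higher in cluster 8 than in cluster 10 and at least 662-fold higher than in cluster 9. *Marcks* was at 585, 538 and 449 CPM in cluster 10 (log2 fold change of cluster 8 1.21 ± 0.15) and 739, 779 and 715 CPM in cluster 9 (0.70 ± 0.12), below every library of cluster 8. *Marcksl1* separated cluster 8 from cluster 10, with 128, 51.6 and 63.6 CPM and a log2 fold change of 3.28 ± 0.27, but overlapped cluster 9, with 563, 436 and 409 CPM and 0.72 ± 0.17. For *Actb* the log2 fold change was 0.41 ± 0.14 against cluster 10 and 0.63 ± 0.12 against cluster 9, and for *Actg1* 0.42 ± 0.14 and 0.36 ± 0.12. *Tmsb4x* was at 25956, 26209.6 and 29324 CPM in cluster 10, and cluster 9 had 22119, 24868 and 25118 CPM, with log2 fold changes of 0.51 and 0.69. The thymosins parted here, since *Tmsb10* was at 6821, 6038 and 5623 CPM in cluster 10, above cluster 8 (-0.90 ± 0.14), whereas against cluster 9 (3923, 2949 and 2996 CPM) it was lower in 2 libraries and higher in 1. *Coro1a* was lower in cluster 8 than in both, with -0.45 ± 0.18 against cluster 10, which did not pass the threshold, and -0.48 ± 0.13 against cluster 9. *Cfl1* (0.34 and 0.38) passed it against cluster 9 alone, and *Vim* (-0.32 and -0.21) against neither. With the library as a replicate block, 9 genes passed against cluster 10, beside 1439 of 4229 genes. Whether the differences from cluster 10 and from cluster 9 differ from each other was not tested. Without TMM factors the median of all genes moved from 0.01 to -0.16 against cluster 10 and from -0.00 to -0.17 against cluster 9, and the share of higher calls from 53.8% to 39.1% and from 54.8% to 40.7%. This lost the calls of *Actb* (0.24) and *Actg1* (0.25) and added *Vim* (-0.49) and *Coro1a* (-0.62) against cluster 10, and lost *Actg1* (0.19) and *Cfl1* (0.21) and added *Vim* (-0.38) against cluster 9. Leaving out the WT or the sGSN-/- library took the count against cluster 10 to 5 and 4 genes and that against cluster 9 to 5 and 6.

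The early clusters were compared with the resting ones, both outside the activated states. *Marcks* was at 261, 255 and 249.3 CPM in early and 455, 422 and 436 CPM in resting cDC1s, lower in the early cells without overlap (log2 fold change -0.77 ± 0.06). *Marcksl1* was lower as well, at 39.1, 26.97 and 31.3 against 84.2, 56.7 and 73.7 CPM (-1.13 ± 0.15). Among the early clusters, cluster 1 was low in both genes, while cluster 4 overlapped resting cluster 0 in *Marcksl1*. *Tmsb10* was higher in early cells, at 7219.6, 5549 and 5313 against 4616, 4003 and 3596 CPM (0.57 ± 0.10), and so was *Coro1a*, at 1275, 1326 and 1249 against 1044.5, 1080 and 1083 CPM (0.27 ± 0.06). These 4 genes, 2 higher and 2 lower of the 9 fitted, passed the threshold beside 38.5% of the 10696 genes fitted (19.1% higher and 19.4% lower), and as clusters fixed this contrast too, nothing is read from the count. *Actb* (0.10), *Actg1* (-0.11), *Tmsb4x* (0.20), *Vim* (0.19) and *Cfl1* (-0.07) did not pass it, and *Fscn1*, with 10, 4 and 0 against 11, 8 and 2 UMIs, was removed by the filter on low counts. With the library as a replicate block all 9 genes passed, beside 4821 of 10696 genes, and over the 10 alternatives *Tmsb4x* passed in 6 and *Vim* in 7.

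Among single cells, *Fscn1* was uneven within cluster 8. A *Fscn1* UMI was found in 43 of 84 (51.2%, 40.04 to 62.3), 61 of 114 (53.5%, 43.9 to 62.9) and 17 of 57 (29.8%, 18.4 to 43.4) cells, where the intervals are exact Clopper-Pearson 95% intervals for counting error only. The sGSN-/-Clec9a-/- library was lowest, and its cells were also the shallowest. With every cell thinned to 3900 UMIs the shares were 51.4, 50 and 25%, after 14, 30 and 13 shallower cells had been left out. In the cDC1s outside cluster 8 the share was 0.851, 0.751 and 0.116%, and in barcodes outside the table with all 3 NK genes (*Ncr1*, *Nkg7*, *Klrd1*), taken as cells that should lack fascin, 0.361, 0.704 and 0.313% at a median of 10641, 8578 and 7696 UMIs, against 12310.5, 11035.5 and 8459 UMIs in cluster 8 and 14142.5, 14269.5 and 12286 UMIs outside it. In thinned cells these shares were 0.275, 0.329 and 0% outside cluster 8 and 0, 0.458 and 0% in NK cells (left out: 53, 76 and 102 and 58, 188 and 147 cells), with overlapping intervals in each library, so the share outside cluster 8 is not told apart from background. No cell of clusters 9 and 10 had a UMI, which by 3 counts of the total allows shares of cells with a UMI, not of cells expressing the gene, of up to 4.48, 7.5 and 5.45% in cluster 9 and up to 14.3, 11.1 and 10.7% in cluster 10. The median cell of cluster 8 held 1, 1 and 0 *Fscn1* UMIs, the highest 126, 71 and 74, and 27, 34 and 7 cells had 10 or more. The *Fscn1* level of cluster 8 thus joins cells without a UMI and cells with 10 or more.

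*Marcks* was found in nearly every cDC1. Its share in cluster 8 was 95.2, 97.4 and 94.7% (92.9, 96.4 and 93.2% in thinned cells), against 94.04, 93.2 and 90.8% outside it (72.1, 70.1 and 70.2% thinned) and 10.5, 10.9 and 13.4% in NK cells. The shares were close to each other in whole cells and apart in thinned cells, and the cells outside cluster 8 were the deeper ones. *Marcksl1* was found in 83.3, 88.6 and 77.2% of cluster 8 (78.6, 79.8 and 72.7% thinned) and 43.8, 34.5 and 35.97% of the cells outside it (21.4, 16.9 and 19.1% thinned), with 12.3, 9.77 and 11.3% in NK cells. Cluster 9 had shares of 97.01, 87.5 and 89.1% and cluster 10 of 42.9, 33.3 and 32.1%, so that clusters 8 and 9 held this gene in most cells and cluster 10 in fewer. The median cell held 9, 4 and 3 *Marcksl1* UMIs in cluster 8, 7, 5.5 and 4 in cluster 9 and 0, 0 and 0 in cluster 10.

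The 10 genes were then compared in cDC1s gated on other genes, of which *Ccr7* marks cluster 8 and *Cxcl9*, *Cxcl10* and *Serpina3g* mark cluster 10, so that the gates do not use the cluster calls but are not independent of them. The Ccr7 gate held cells with at least 1 UMI each of *Ccr7*, the chemokine gene *Ccl22* and the amino acid oxidase gene *Il4i1*, and took 51, 62 and 22 cells (median 12816, 13029 and 8090.5 UMIs) against 2265, 1650 and 1756 other cDC1s (median 14105, 14179.5 and 12267 UMIs). Of its 135 cells, 134 were in cluster 8 and 1 in cluster 6, so that it held 52.5% of cluster 8 and is no second set of cells beside it, and its p-values test nearly the contrast of cluster 8 again. In this gate 7 of the 10 genes rose and 2 fell, beside 42.3% of the 10887 genes fitted (19.7% higher and 22.6% lower), and whether the list stands apart from other genes of the same abundance was not tested. The median log2 fold change was 0.50 over the 10 genes and -0.17 over all genes. *Fscn1* was at 1423, 1019 and 1172 CPM in the gate and 2.38, 11.01 and 1.64 CPM in the other cDC1s, higher in 3 of 3 libraries, and its log2 fold change was 8.04 ± 0.46 (edgeR's quasi-likelihood test, Benjamini-Hochberg adjusted p = 1.86e-10). Over the libraries the cDC1s outside the gate held 361 *Fscn1* UMIs and the cDC1s outside cluster 8 held 38. Most *Fscn1* of the reference thus came from cells of cluster 8 that the gate did not take. The sGSN-/- library had the most *Fscn1* outside the gate, and without it the log2 fold change was 9.35, the highest of the alternatives. Thinned cells, with the gate called again on the thinned counts, gave the lowest, 6.60, with the median of all genes at -0.46. *Marcks* was at 1253, 1096 and 1565 against 422, 392 and 401 CPM, also higher in 3 of 3, with a log2 fold change of 1.75 ± 0.13 (edgeR quasi-likelihood, BH-adjusted p = 5.20e-09). *Marcksl1* was at 912, 845 and 1037 against 94.8, 66.1 and 76.3 CPM, higher in 3 of 3, with a log2 fold change of 3.63 ± 0.14 (edgeR quasi-likelihood, BH-adjusted p = 1.43e-12). For these genes of bundling and of the membrane no library of the gate overlapped the other cDC1s.

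The actins and the thymosin *Tmsb4x* rose in the Ccr7 gate as well. *Actb* was at 23246, 21082 and 20838 against 13397.5, 14117 and 14173.5 CPM, higher in 3 of 3 libraries (log2 fold change 0.73 ± 0.15, edgeR's quasi-likelihood test, Benjamini-Hochberg adjusted p = 0.000882). *Actg1* was at 6907, 7286 and 7436 against 5878, 5742 and 5369 CPM, higher in 3 of 3 (log2 fold change 0.44 ± 0.14, edgeR quasi-likelihood, BH-adjusted p = 0.0178). *Tmsb4x* was at 35946, 37652 and 36983 against 24825.5, 27496 and 27729 CPM, higher in 3 of 3 (log2 fold change 0.56 ± 0.16, edgeR quasi-likelihood, BH-adjusted p = 0.00924). No library of the gate overlapped the other cDC1s for any of these. *Tmsb10* went the other way, at 2929.5, 3133 and 2075 against 5244, 4502 and 4082 CPM, lower in 3 of 3 (log2 fold change -0.65 ± 0.18, edgeR quasi-likelihood, BH-adjusted p = 0.00758). *Cfl1*, at 1838, 1568 and 1559 against 1376, 1322 and 1239 CPM, was higher in 3 of 3 (log2 fold change 0.44 ± 0.13, edgeR quasi-likelihood, BH-adjusted p = 0.0146). *Coro1a*, at 644, 609.9 and 437 against 1082, 1121 and 1107 CPM, was lower in 3 of 3 (log2 fold change -0.82 ± 0.15, edgeR quasi-likelihood, BH-adjusted p = 0.000336). The *Coro1a* values of the gate lay below every library of the other cDC1s, with the sGSN-/-Clec9a-/- library lowest. *Vim* was at 1748, 1739 and 2008 against 2092, 1999 and 1779 CPM, higher only in the sGSN-/-Clec9a-/- library, with a log2 fold change of -0.01 ± 0.13 that did not pass the test (edgeR quasi-likelihood, BH-adjusted p = 0.962).

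The calls of 5 of these genes were lost with the WT or the sGSN-/- library left out. Without the WT library the Benjamini-Hochberg adjusted p of edgeR's quasi-likelihood test was 0.0959 for *Actb* (log2 fold change 0.64), 0.165 for *Actg1* (0.48), 0.240 for *Tmsb4x* (0.51), 0.0609 for *Tmsb10* (-0.61) and 0.202 for *Cfl1* (0.37), which left 4 of the 10 genes past the threshold. Without the sGSN-/- library (edgeR quasi-likelihood, BH-adjusted p = 0.127, 0.0578 and 0.0677, log2 fold changes 0.38, 0.50 and 0.42) *Actg1*, *Tmsb4x* and *Cfl1* did not pass it, and the same genes did not pass it in thinned cells (0.29, 0.39 and 0.36). *Fscn1*, *Marcks*, *Marcksl1* and *Coro1a* passed with each of the libraries left out. Without TMM factors the median log2 fold change of all genes moved from -0.17 to -0.29. In thinned cells it moved to -0.46 and the share of higher calls from 46.6% to 38.0%. The gate was called again on the thinned counts, so cells that lost a gate gene by thinning counted among the other cDC1s. The lower values there thus come with a shift of all genes and with other classes of cells, and their cause was not tested. The 6 macrophage genes summed to 731, 23.4 and 44.9 CPM in the gate and 52.3, 36.5 and 47.1 CPM in the other cDC1s, so that the WT library of the gate stood out, with *Apoe* at 327 CPM and *Mertk* at 0. The 6 cDC2 genes summed to 115, 21.03 and 16.8 CPM against 56.6, 54.98 and 54.7 CPM, the 6 NK genes to 111, 224 and 44.9 against 70.8, 117 and 81.1 CPM and the 5 T cell genes to 16.1, 38.6 and 11.2 against 2.22, 3.14 and 2.54 CPM. *Cd3e* and *Cd3g* were at 0 in the WT and sGSN-/-Clec9a-/- libraries of the gate, and *Prf1* was at 0 in each library. The 8 cDC1 genes summed to 1537, 1381 and 813 CPM in the gate, led by *Irf8*, against 3914, 3843 and 3876 CPM. With cells carrying at least 3 UMIs of markers of other types left out, the 9 genes passed as before and the log2 fold change was 8.13 for *Fscn1*, 1.82 for *Marcks*, 0.86 for *Actb* and -0.81 for *Coro1a*. In the Ccr7 gate 36 of 51, 35 of 62 and 11 of 22 cells had a *Fscn1* UMI (70.6, 56.5 and 50%), against 0.361, 0.704 and 0.313% of NK cells. With the cells of this same gate thinned, and the gate not called again, the share was 69.4, 58.2 and 50%, after 2, 7 and 2 cells had been left out.

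A second gate took cDC1s with *Cxcl9*, *Cxcl10* and *Serpina3g*, genes induced by interferon, outside the Ccr7 gate (24, 26 and 29 cells, median 16259.5, 14724.5 and 12920 UMIs). Of its 79 cells, 39 were in cluster 10, 25 in cluster 7, 6 in cluster 8, 5 in cluster 4 and the others in clusters 1, 5 and 9. Against the cDC1s in neither gate 1 of the 10 genes rose and 0 fell, beside 10.4% of the 10689 genes fitted (6.79% higher and 3.63% lower), and whether the list stands apart from other genes was not tested. The gene was *Actb*, at 16441, 16312.5 and 18572 against 13362, 14078 and 14083 CPM, higher in 3 of 3 libraries (log2 fold change 0.35 ± 0.10, edgeR's quasi-likelihood test, Benjamini-Hochberg adjusted p = 0.0329). This call was lost without any 1 of the libraries (edgeR quasi-likelihood, BH-adjusted p = 0.121 without WT, 0.232 without sGSN-/- and 0.198 without sGSN-/-Clec9a-/-, log2 fold changes 0.36, 0.38 and 0.30), in thinned cells (0.17), with a gate of 2 UMIs per gene (0.26) and without cells that carried markers of other types (0.29). *Marcks* was at 608, 529 and 396 against 419.6, 389.7 and 401 CPM, higher in 2 of 3 libraries (log2 fold change 0.38 ± 0.12, edgeR quasi-likelihood, BH-adjusted p = 0.0512). *Marcksl1* was at 156, 76.7 and 119 against 94.1, 65.96 and 75.4 CPM, higher in 3 of 3 (log2 fold change 0.62 ± 0.21, edgeR quasi-likelihood, BH-adjusted p = 0.0800), and in thinned cells its log2 fold change was -0.37 where the median of all genes was -0.45, so no direction is read from that value. *Coro1a* was at 659, 905 and 1017 against 1087, 1124 and 1109 CPM, lower in 3 of 3 (log2 fold change -0.31 ± 0.13, edgeR quasi-likelihood, BH-adjusted p = 0.165). None of these passed the test, but with the library as a replicate block *Marcks* (edgeR quasi-likelihood, BH-adjusted p = 0.0186, log2 fold change 0.37), *Marcksl1* (0.0117, 0.61), *Tmsb10* (0.0106, 0.24) and *Coro1a* (0.0177, -0.33) did, which with *Actb* made 5 of the 10 genes beside 1045 of 10689 genes. *Marcks* and *Marcksl1* also passed with DESeq2 and, with *Coro1a*, without the filter. *Marcksl1* passed without the sGSN-/- library (log2 fold change 0.71), *Marcks* without the sGSN-/-Clec9a-/- library (0.53) and *Coro1a* in thinned cells (-0.51, with the median of all genes at -0.45), each without *Actb*. In the main fit *Tmsb10* (log2 fold change 0.24), *Tmsb4x* (0.12), *Actg1* (-0.06), *Vim* (-0.01) and *Cfl1* (0.07) did not pass the test either, and *Fscn1* had 1, 0 and 0 UMIs in the gate. The cDC2 genes summed to 96.8, 263 and 114 CPM in this gate, led by *Cd209a* in WT and sGSN-/-, and the macrophage genes to 185, 17.9 and 67.5 CPM, with *Mertk* at 0 in each library, against 56.6, 54.98 and 54.7 and 52.3, 36.5 and 47.1 CPM in the cDC1s outside the Ccr7 gate. The share of higher calls was 65.2%, with DESeq2 75.7% and in thinned cells 36.1%, where the median log2 fold change of all genes moved from -0.10 to -0.45, so that the balance of calls depended on the setting.

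The Ccr7 gate was then set against the Cxcl9 gate, so that activated cells of one kind were compared with those of the other. Here 7 of the 10 genes were higher and 2 lower in the Ccr7 gate, beside 45.0% of the 4176 genes fitted (22.3% higher and 22.7% lower), but nothing is read from that count, as *Fscn1* passed the filter on low counts only through the Ccr7 gate and so had to differ. *Fscn1* gave 1061, 872 and 209 UMIs in the Ccr7 gate and 1, 0 and 0 in the Cxcl9 gate, a ratio of 1436 with a counting interval from 257 to 5.67e+04 over the summed libraries. Its fitted value and p are therefore not given, and the 1 UMI that decides the ratio came from the WT library. *Marcks* was at 1253, 1096 and 1565 against 608, 529 and 396 CPM, higher in 3 of 3 (log2 fold change 1.45 ± 0.18, edgeR quasi-likelihood, BH-adjusted p = 3.89e-05). *Marcksl1* was at 912, 845 and 1037 against 156, 76.7 and 119 CPM, higher in 3 of 3 (log2 fold change 3.08 ± 0.22, edgeR quasi-likelihood, BH-adjusted p = 3.98e-07). *Actb*, *Actg1* and *Tmsb4x* had log2 fold changes of 0.44 ± 0.12, 0.56 ± 0.12 and 0.50 ± 0.12, each higher in 3 of 3 (edgeR quasi-likelihood, BH-adjusted p = 0.00786, 0.00242 and 0.00477). *Tmsb10* was at 2929.5, 3133 and 2075 against 5680.3, 5461 and 4596 CPM, lower in 3 of 3 (log2 fold change -0.84 ± 0.15, edgeR quasi-likelihood, BH-adjusted p = 0.000446). *Tmsb4x* and *Tmsb10* thus differed in opposite directions between the gates. *Cfl1* (log2 fold change 0.41 ± 0.13, edgeR quasi-likelihood, BH-adjusted p = 0.0186, higher in 3 of 3) and *Coro1a* (-0.50 ± 0.19, edgeR quasi-likelihood, BH-adjusted p = 0.0492, lower in 3 of 3) were close to the threshold. *Coro1a* did not pass with the library as a replicate block (edgeR quasi-likelihood, BH-adjusted p = 0.0782, log2 fold change -0.47), without the sGSN-/- library (0.161, -0.55) or without the sGSN-/-Clec9a-/- library (0.466, -0.19), nor without the filter (-0.43), with DESeq2 (-0.49), in thinned cells (-0.51) or with a gate of 2 UMIs (-0.49), so that in most of these the log2 fold change stayed near -0.50. *Cfl1* did not pass without WT, without sGSN-/- or without sGSN-/-Clec9a-/- (edgeR quasi-likelihood, BH-adjusted p = 0.0933, 0.0928 and 0.0556, log2 fold changes 0.37, 0.45 and 0.42), nor without TMM factors (0.31) or without the filter (0.46). *Actb* did not pass without the WT library (edgeR quasi-likelihood, BH-adjusted p = 0.0681, log2 fold change 0.37) or without the sGSN-/- library (0.0597, 0.41). *Vim* was at 1748, 1739 and 2008 against 2151, 1866 and 1649.9 CPM, with a log2 fold change of 0.06 ± 0.14 (edgeR quasi-likelihood, BH-adjusted p = 0.753).

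Barcodes outside the deposited cDC1 table allowed the same question in cells that were not among the clustered cDC1s. There the Ccr7 gate (89, 67 and 18 barcodes, median 12469, 11434 and 13651 UMIs) was compared with barcodes carrying *Sirpa*, *Itgam* and *Cd209a*, the cDC2 gate (1708, 622 and 814 barcodes, median 15505.5, 16019.5 and 14054.5 UMIs). Gates outside the table shared no barcode, and some barcodes with all 3 genes of the Ccr7 gate were assigned to none, so a gate there need not hold every barcode with its genes. Of the 10 genes 6 rose and 1 fell in the Ccr7 gate, beside 25.1% of the 10715 genes fitted (14.3% higher and 10.8% lower). *Fscn1* was at 602, 771 and 248 CPM in the Ccr7 gate and 0.663, 4.61 and 0.146 CPM in the cDC2 gate, higher in 3 of 3 libraries (log2 fold change 8.79 ± 0.60, edgeR's quasi-likelihood test, Benjamini-Hochberg adjusted p = 6.50e-07). It passed the filter on low counts through the Ccr7 gate, with 1 of 3 libraries of the cDC2 gate past the limit, so the test says little beyond the counts. Without the WT library its log2 fold change was 8.07 and without the sGSN-/- library 9.96, and the *Fscn1* UMIs of the cDC2 gate were 20, 54 and 2, most of them in sGSN-/-. *Marcks* was at 621, 845 and 775 against 164, 184 and 183 CPM, higher in 3 of 3 (log2 fold change 2.25 ± 0.12, edgeR quasi-likelihood, BH-adjusted p = 8.03e-08). *Marcksl1* was at 474, 542 and 467 against 153, 147 and 138 CPM, higher in 3 of 3 (log2 fold change 1.95 ± 0.10, edgeR quasi-likelihood, BH-adjusted p = 6.16e-08). The groups did not overlap for any of these 3 genes. *Actb* was at 14198, 15574 and 14422 against 10966, 11216 and 12172 CPM, higher in 3 of 3 (log2 fold change 0.54 ± 0.07, edgeR quasi-likelihood, BH-adjusted p = 0.000217). *Tmsb4x* was at 31599, 33812 and 27565 against 19276, 20434 and 21253 CPM, higher in 3 of 3 (log2 fold change 0.79 ± 0.09, edgeR quasi-likelihood, BH-adjusted p = 3.59e-05). *Actg1*, at 4248, 4586 and 4216 against 3952, 3908 and 4083 CPM, also rose in 3 of 3 (log2 fold change 0.31 ± 0.08, edgeR quasi-likelihood, BH-adjusted p = 0.0113), a call lost without the WT or the sGSN-/- library (edgeR quasi-likelihood, BH-adjusted p = 0.0786 and 0.267, log2 fold changes 0.30 and 0.21), without TMM factors (0.13), without the filter (0.24) and without cells that carried markers of other types, where the log2 fold change was larger (0.36). *Vim* fell here, from 2695, 2616 and 2507 CPM in the cDC2 gate to 1416, 1352 and 1547 CPM in the Ccr7 gate, lower in 3 of 3 (log2 fold change -0.68 ± 0.08, edgeR quasi-likelihood, BH-adjusted p = 8.55e-05).

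*Tmsb10*, *Cfl1* and *Coro1a* did not pass the test outside the table. *Tmsb10* was at 2593, 1952.5 and 2109 CPM in the Ccr7 gate and 2866, 2306 and 2209 CPM in the cDC2 gate (log2 fold change 0.04 ± 0.13, edgeR's quasi-likelihood test, Benjamini-Hochberg adjusted p = 0.875). It was lower in each library by CPM, whereas the fitted value, scaled with TMM factors, lay near 0. *Coro1a* was at 679, 687 and 747 against 933, 919 and 955 CPM, lower in 3 of 3 (log2 fold change -0.24 ± 0.09, edgeR quasi-likelihood, BH-adjusted p = 0.0631), and passed without TMM factors (edgeR quasi-likelihood, BH-adjusted p = 0.00282, log2 fold change -0.42), without the filter (-0.31), with DESeq2 (-0.26), in thinned cells (-0.47) and without the top 5% of cells by UMIs (-0.30). *Cfl1* had a log2 fold change of 0.26 ± 0.10 (edgeR quasi-likelihood, BH-adjusted p = 0.0691, higher in 2 of 3), and passed with the library as a replicate block (edgeR quasi-likelihood, BH-adjusted p = 0.0446, log2 fold change 0.25) and without the sGSN-/-Clec9a-/- library (0.0210, 0.33), as well as with DESeq2 (0.25), in thinned cells (0.46) and without the top 5% of cells (0.35). Without TMM factors the median of all genes moved from -0.03 to -0.21 and the share of higher calls from 57.2% to 34.7%. Marker sums did not settle the type of the Ccr7 gate barcodes outside the table. Their 6 cDC2 genes summed to 762, 576 and 1067 CPM, led by *Mgl2*, against 1909, 1979 and 2022.5 CPM in the cDC2 gate, and their 8 cDC1 genes to 681.5, 931 and 1115 against 617, 746 and 729 CPM. Among these 8, mean *Xcr1* was 18.83 ± 14.77 against 19.98 ± 4.12 CPM, and mean *Clec9a* 6.03 ± 5.22 against 12.22 ± 11.48 CPM. Over all cDC1s *Xcr1* and *Clec9a* were at means of 220.1 and 112.3 CPM. The *Clec9a* means include the sGSN-/-Clec9a-/- library. The higher cDC1 sum thus came from other genes of the 8. The 6 macrophage genes summed to 117, 548 and 1458 against 176, 109 and 211 CPM, most of it *Apoe* with 80.9, 516 and 1376 CPM in the Ccr7 gate, and *Mertk* was at 0 in its sGSN-/- and sGSN-/-Clec9a-/- libraries. The 6 NK genes summed to 593, 577 and 442 against 584, 591 and 466 CPM, most of it *Klrd1*, and the 5 T cell genes to 5.20, 10.1 and 0 against 2.09, 3.67 and 3.95 CPM. Outside the table the markers of other types used to leave out barcodes held the NK genes, *Klrd1* among them, but not the macrophage genes. Without barcodes carrying at least 3 UMIs of these markers the log2 fold change was 11.61 for *Fscn1*, 2.80 for *Marcks*, 0.91 for *Tmsb4x* and -1.28 for *Vim*. Each was at least as far from 0 as with them, with 7982 genes fitted. That setting does not bear on the *Apoe* sums. Whether any gene differed more here than in the cDC1s was not tested.

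**Figure D2:**
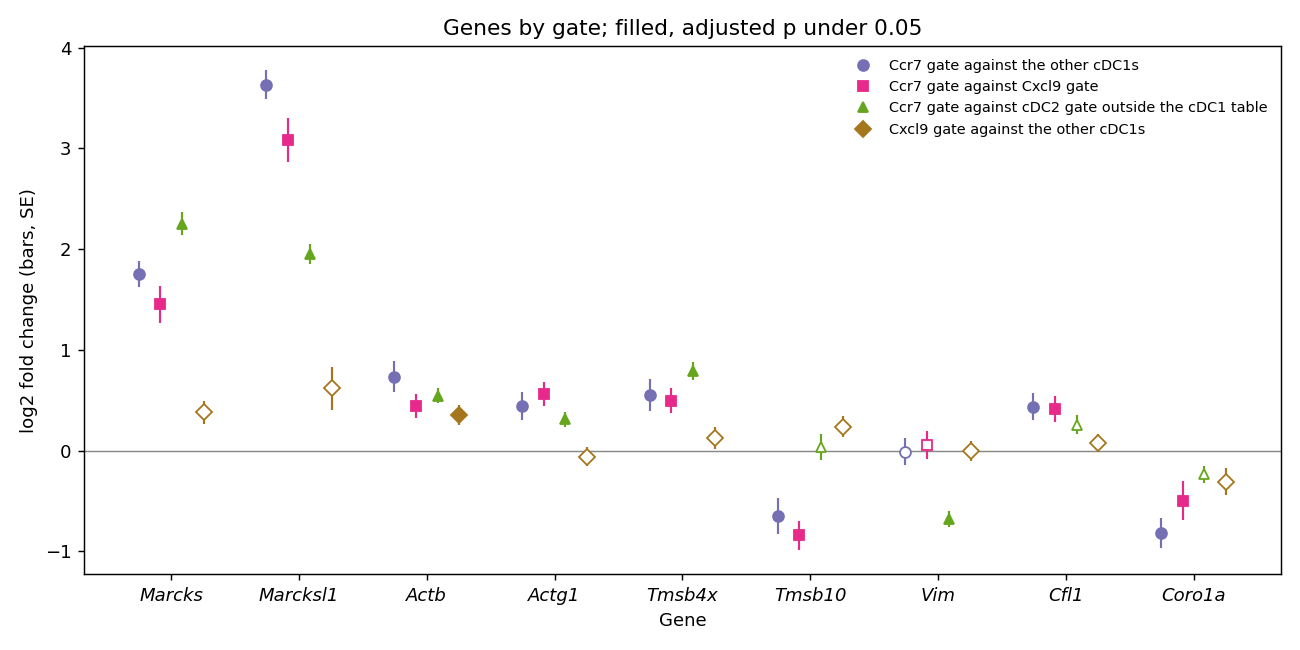
Log2 fold change (vertical axis, bars show the standard error) of 9 genes, without *Fscn1*, in the 4 comparisons between gates (symbols), each over 3 libraries, with filled symbols for genes past an adjusted p of 0.05. *Marcks* and *Marcksl1* lie highest in the comparisons of the Ccr7 gate, *Tmsb10* and *Coro1a* lie below 0 in those within cDC1s, and 1 symbol of the Cxcl9 gate, that of *Actb*, is filled.

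The 115 further actin genes were read in the same fits. In the Ccr7 gate of cDC1s 48 rose and 27 fell of 110 fitted, with a median log2 fold change of 0.30 against -0.17 over all genes and beside 42.3% of the 10887 genes fitted (19.7% higher and 22.6% lower). Whether the list or a role stands apart from other genes was not tested. By role, 10 of 13 fitted genes of myosin and contraction rose and 2 fell (median 0.77), and 6 of 9 activators of branched assembly rose and 2 fell (0.48). Of 17 cross-linking genes 7 rose and 4 fell, and of 11 capping genes 4 rose and 3 fell. The subunits of the Arp2/3 complex, which starts branched filaments, split into 3 that rose and 2 that fell of 9, the formins into 3 and 1 of 7, the turnover genes into 5 and 4 of 16 and the adhesion genes into 3 and 5 of 12. Among the largest rises was that of *Scin*, a relative of gelsolin that caps and severs filaments, at 181 ± 42.04 against 5.64 ± 1.67 CPM (log2 fold change 5.04 ± 0.21, edgeR's quasi-likelihood test, Benjamini-Hochberg adjusted p = 2.06e-12, higher in 3 of 3 libraries). *Actn1*, an actinin that cross-links filaments, was at 173 ± 20.6 against 9.36 ± 2.32 CPM (log2 fold change 4.32 ± 0.18, edgeR quasi-likelihood, BH-adjusted p = 2.64e-12, 3 of 3). *Swap70*, an F-actin binding protein, was at 373 ± 50.6 against 25.2 ± 1.51 CPM (log2 fold change 3.95 ± 0.11, edgeR quasi-likelihood, BH-adjusted p = 3.28e-14, 3 of 3). The cofilin phosphatase gene *Ssh1* (3.56) and *Dstn* (3.11), a relative of cofilin, were among the largest as well. The largest falls that rest on more than a few UMIs were those of *Parvg* (-2.48), *Evl* (-2.22), the integrin gene *Itgb2* (-2.19), *Myo1f* (-2.18) and *Eps8* (-2.03). *Itgb2* was at 36.9 ± 17.4 against 216 ± 7.57 CPM (edgeR quasi-likelihood, BH-adjusted p = 2.00e-08, log2 fold change -2.19 ± 0.18, lower in 3 of 3). The formin gene *Fmnl3* had 1 UMI in the gate against 293 outside it.

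In the Cxcl9 gate 11 of 110 further genes rose and 5 fell, beside 10.4% of the 10689 genes fitted (6.79% higher and 3.63% lower), and nothing is read from that count. The cell adhesion gene *Icam1* was at 208 ± 41.98 against 90.97 ± 7.80 CPM (log2 fold change 1.24 ± 0.14, edgeR's quasi-likelihood test, Benjamini-Hochberg adjusted p = 1.63e-05, higher in 3 of 3). *Swap70* rose there by 0.97 and the drebrin gene *Dbn1* fell (-1.18). Between the Ccr7 and the Cxcl9 gate there were 36 higher and 20 lower of 94 fitted (all genes 45.0% past the threshold). At the upper end were *Scin* (181 against 5.11 CPM), *Actn1* (173 against 8.23), *Ssh1* (96.5 against 6.76) and *Tpm1*, a tropomyosin gene (134 against 14.2). In the Cxcl9 gate these lay under the filter's limit of 24.4 CPM. They passed it only through the Ccr7 gate and so had to differ, and their fitted values are not given. At the lower end were *Parvg* (-1.98), *Myo1f* (-1.82) and *Itgal* (-1.74). Their means in the Ccr7 gate (7.02, 12.7 and 18.35 CPM) lay under that limit as well, so nothing is read from the counts. In the barcodes outside the table there were 30 higher and 20 lower of 111 fitted (all genes 25.1%), led by *Scin* (4.47), *Ssh1* (2.42) and *Swap70* (2.33), with *Eps8* (-1.50) among the lowest. In the comparisons of clusters, which are a description, there were 48 higher and 25 lower of 110 fitted (all genes 41.7%) in cluster 8 against the other cDC1s, with *Scin* (5.42) among the highest and *Parvg* (-1.89) and *Was* (-1.71) lowest. Against cluster 10 there were 25 higher and 13 lower of 93 fitted (all genes 35.0%), against cluster 9 35 higher and 22 lower of 101 fitted (38.2%), and in early against resting cDC1s 22 higher and 37 lower of 110 fitted (38.5%).

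Between genotypes there is 1 library each, so levels over all cDC1s are given with ratios and exact 95% intervals for counting error, with no replicate check and no test. Over genes with at least 50 CPM in either library, 0 of 9 members were 25% above or 20% below in sGSN-/- against WT, beside 2.22% of 2520 genes, and 0 of 9 in sGSN-/-Clec9a-/- against sGSN-/-, beside 3.89% of 2466 genes. *Fscn1*, the member below 50 CPM, was at 34.8, 47.6 and 11.4 CPM, with ratios of 1.37 (1.26 to 1.49) and 0.239 (0.207 to 0.274). The sGSN-/- library was thus highest and the sGSN-/-Clec9a-/- library lowest in *Fscn1*, and so it was for *Ccr7*, at 77.4, 133 and 30.2 CPM. Cluster 8 held 84 of 2316, 114 of 1712 and 57 of 1778 cDC1s, so that the share of these cells and the level in them cannot be told apart in the sum. Within cluster 8 the ratio of *Fscn1* was 0.810 (0.745 to 0.881) in sGSN-/- against WT and 0.537 (0.466 to 0.618) in sGSN-/-Clec9a-/- against sGSN-/-, and with the 12 clusters weighted equally it was 0.809 and 0.535. The direction for sGSN-/- against WT thus differed between all cDC1s and cluster 8, whereas sGSN-/-Clec9a-/- was lower than sGSN-/- in both. In the Ccr7 gate, which held 59.5, 54.4 and 38.6% of cluster 8, *Fscn1* was at 1423, 1019 and 1172 CPM, with sGSN-/-Clec9a-/- above sGSN-/-, so that within cluster 8 as well the level and the make-up of the cells cannot be told apart. *Marcksl1* had ratios of 0.832 (0.789 to 0.878) and 0.893 (0.838 to 0.9502) over all cDC1s, and 0.853 (0.776 to 0.938) and 0.757 (0.659 to 0.867) within cluster 8. *Tmsb10* was at 0.858 (0.851 to 0.864) and 0.913 (0.905 to 0.921), highest in WT and lowest in sGSN-/-Clec9a-/-, and *Tmsb4x* at 1.11 (1.11 to 1.11) and 0.998 (0.994 to 1.001). The other ratios lay between 0.948 (*Marcks*) and 1.05 (*Actb*) in the first contrast and between 0.895 (*Vim*) and 0.999 (*Coro1a*) in the second. The median ratio of the 9 members was 0.960 and 0.933, against 1.01 and 0.955 over all genes. Both contrasts share the sGSN-/- library. Of 75 further actin genes at 50 CPM, 0 were past these limits in the first contrast and 1 in the second, *Dstn* with a ratio of 0.718, named after its value was seen.

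The genes most like each member were sought over the 36 sums of 12 clusters in 3 libraries, among 4828 genes with a mean of at least 20 CPM, by Pearson's r of log2(CPM + 10). These sums share libraries and differ in depth, so the r values describe the clusters and carry no p. *Fscn1* was most like *Cd63* (0.993), *Socs2* (0.968) and *Ccr7* (0.965), *Marcks* *Clic4* (0.888), *Tbc1d4* (0.879) and *Zc3h12c* (0.871), and *Marcksl1* *C9orf72* (0.877), *Gadd45b* (0.865) and *Nabp1* (0.844). Since the mean of *Fscn1* was at most 0.949 CPM in every cluster other than cluster 8, its r values mostly restate which genes are high or low in cluster 8. *Actb* was most like *Psme1* (0.933), *Gabarap* (0.919) and *Pank2* (0.916), and *Actg1* *Nagk* (0.904), *Capzb* (0.903) and *Ptov1* (0.898). For *Tmsb4x* they were *Pfn1* (0.959), *Psme1* (0.943) and *Cox6b1* (0.942), the first of which encodes profilin, another binder of actin monomers. *Tmsb10* was most like *Cox7b* (0.931), *Snrpd2* (0.929) and *Cycs* (0.928), *Cfl1* *Arpc5* (0.947), *Chmp2a* (0.934) and *Capzb* (0.913), and *Coro1a* *Rgs18* (0.873), *Idh3g* (0.851) and *Bin2* (0.845). *Arpc5*, first for *Cfl1*, is a subunit of the Arp2/3 complex, and *Capzb*, on the lists of *Actg1* and *Cfl1*, caps filament ends. *Vim* had no gene above 0.783, with *S100a10* (0.783), *Sms* (0.737) and *Card19* (0.678). Between members r was 0.90 for *Actb* and *Tmsb4x*, 0.86 for *Actb* and *Actg1*, and 0.76 for *Marcks* and *Marcksl1*. The sums of the shallow cluster 11 enter every r. There the means of *Actb*, *Actg1*, *Tmsb4x* and *Cfl1* were 6516, 2643, 6100 and 629 CPM. In the next lowest clusters they were 13013, 5196, 17262 and 1211 CPM. How far the r values of these genes, also those with *Pfn1*, *Arpc5* and *Capzb*, rest on cluster 11 was not tested. *Coro1a* ran against *Marcks* (-0.82), *Fscn1* (-0.73) and *Marcksl1* (-0.68), while r was closer to 0 for the other genes that were higher in cluster 8, with -0.26 for *Actb*, -0.13 for *Actg1*, -0.04 for *Tmsb4x* and -0.07 for *Cfl1*. *Tmsb4x* and *Tmsb10*, which differed in opposite directions in cluster 8, still had an r of 0.72 over all sums, to which the low sums of cluster 11 belong.

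The members lie on 9 chromosomes in GRCm38. *Fscn1* is ENSMUSG00000029581, chr5:142960343-142973185, plus strand, and *Actb*, on the same chromosome, ENSMUSG00000029580, chr5:142903115-142906754, minus strand. *Marcks* is ENSMUSG00000069662, chr10:37133375-37138920, minus strand, and *Marcksl1* ENSMUSG00000047945, chr4:129513581-129515985, plus strand. *Actg1* is ENSMUSG00000062825, chr11:120345690-120348542, minus strand, *Tmsb4x* ENSMUSG00000049775, chrX:167207093-167209315, minus strand, and *Tmsb10* ENSMUSG00000079523, chr6:72957347-72958748, minus strand. *Vim* is ENSMUSG00000026728, chr2:13573927-13582826, plus strand, *Cfl1* ENSMUSG00000056201, chr19:5490455-5495201, plus strand, and *Coro1a* ENSMUSG00000030707, chr7:126699773-126707787, minus strand. All are protein-coding genes. *Cfl1* overlaps *Snx32* and *Coro1a* overlaps *Bola2* on the opposite strand, while *Actg1* overlaps *Gm23419* and *Mir6935* on its own strand, and the sources used here do not say whether the counting separated them. The sources used here do not say which end of a transcript the assay read. In the last 500 bases, 61.9% of the 50-base words of *Tmsb10* recur in 5 other genes, most in *Gm9844*, *Gm3788* and *AC113528.1*, and 9.31% of those of *Actb* recur in *Lrrc58*, so the counts of *Tmsb10* are uncertain if the 3' end was read. The other 8 members shared no such word there with another gene.

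RefSeq promoters of GRCm38.p6 (250 bases before to 50 after the start) were given for 8 of the 10 members in 11 entries, and none for *Marcks* and *Actb*. They were searched on both strands for the CArG box of serum response factor, a classical element of actin genes, for the kappa B motif, and for TATAAA and GGGCGG. *Fscn1*, *Actg1* and *Vim* are shown because they hold the members' only matches to the first 3 motifs, in capitals: TATAAA at -31 in *Fscn1* (chr5:142960105-142960404, plus strand, 61.7% GC), a CArG box at -90 in *Actg1* (chr11:120348446-120348745, minus strand, 77.3% GC), and a kappa B motif at -223, on the other strand, and TATAAA at -32 in *Vim* (chr2:13574061-13574360, plus strand, 59.3% GC), counted from the start.
Fscn1: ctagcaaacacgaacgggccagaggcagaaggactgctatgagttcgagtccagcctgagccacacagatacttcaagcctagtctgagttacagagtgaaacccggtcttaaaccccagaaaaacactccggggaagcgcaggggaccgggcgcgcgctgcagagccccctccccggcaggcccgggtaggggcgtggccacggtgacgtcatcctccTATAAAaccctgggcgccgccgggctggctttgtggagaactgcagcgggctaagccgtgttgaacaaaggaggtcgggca
Actg1: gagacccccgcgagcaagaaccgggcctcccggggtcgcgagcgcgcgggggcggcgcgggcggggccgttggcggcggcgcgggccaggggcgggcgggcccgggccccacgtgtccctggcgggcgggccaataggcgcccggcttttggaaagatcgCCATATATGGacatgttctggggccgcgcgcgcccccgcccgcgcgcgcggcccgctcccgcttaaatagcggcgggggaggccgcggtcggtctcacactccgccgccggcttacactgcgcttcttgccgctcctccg
Vim: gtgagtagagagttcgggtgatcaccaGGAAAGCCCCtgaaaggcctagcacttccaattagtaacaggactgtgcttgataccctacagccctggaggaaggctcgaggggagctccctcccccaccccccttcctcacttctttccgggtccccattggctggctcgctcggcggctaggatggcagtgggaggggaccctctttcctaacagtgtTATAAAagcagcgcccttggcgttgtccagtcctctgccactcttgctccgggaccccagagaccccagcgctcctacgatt
Of all 32851 promoters, 1.63% held a CArG box, 4.51% a kappa B motif, 13.6% TATAAA and 35.7% GGGCGG, and GGGCGG was found in 9 of the 11 entries, from 6 members. The median GC content of all promoters was 52.7%. A match describes the letters in this window and nothing more.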

How the data were processed

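Raw UMI counts per gene and barcode were deposited by the authors for each library, with no normalisation, after alignment to mm10 (GRCm38) with Cell Ranger. The submitters' processing notes also name Seurat, and the paper's methods give 4.0.0 as the version of R. A deposited table gave the cluster of each cDC1, called by the authors on integrated data. UMI counts were summed per library and class and compared with edgeR 4.0.16 in R 4.3.3 (TMM factors, filterByExpr, quasi-likelihood F-test, Benjamini-Hochberg adjustment at 0.05), and standard errors are the absolute log2 fold change over the square root of F. Other steps used Python 3.11.15, numpy 2.4.6, scipy 1.17.1 and pandas 2.3.3. Alternatives were DESeq2 1.42.0, no TMM factors, no filter, the library as a block, each library left out, cells thinned to 3900 UMIs, a gate of 2 UMIs, all other kept barcodes outside the table as reference in place of the cDC2 gate, and cells with at least 3 UMIs of markers of other types left out. Fits of thinned cells called the gates again on the thinned counts. Outside the table, that reference held no barcode with all 3 genes of the Ccr7 gate, and the markers of other types did not include the macrophage genes. The sources used here do not say how doublets were treated by the authors, and leaving out the 5% of cells with most UMIs was another alternative. The sums of 1 library come from 1 pool of mice and are paired by design, and their deviations correlated at 0.211, 0.112 and 0.167 for the Ccr7 gate, 0.394, 0.221 and 0.466 for the Cxcl9 gate, 0.0618, 0.0933 and 0.0471 between these gates, 0.370, 0.158 and 0.323 outside the table, 0.327, 0.344 and 0.410 for cluster 8 against the other cDC1s, 0.0978, -0.0450 and 0.0851 against cluster 10, 0.149, 0.100 and 0.173 against cluster 9 and 0.711, 0.576 and 0.844 for early against resting cDC1s. Barcodes outside the table needed 200 genes and a mitochondrial share of at most 16.7%, the mean plus 2 SD. Named were all 10 genes, of the further actin genes past the threshold at most the 6 largest and 6 smallest log2 fold changes, and the 3 genes most like each member. Some further actin genes that this rule names, and 1 role, are not reported here. The members, lists and gates were chosen with earlier results of these data known.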

Additional observations from a re-analysis of the deposited data

Results flagged for a closer look

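*Fscn1* was also counted in barcodes that no comparison of the report used, those outside the cDC1 table and assigned to no gate, which entered only the alternative with all other barcodes as reference. Its level there was 4.47, 10.4 and 3.42 CPM in the WT, sGSN-/- and sGSN-/-Clec9a-/- libraries (315, 452 and 172 UMIs in 5323, 3270 and 4333 barcodes, median 11932, 10419 and 9112 UMIs), above the 0.269, 0.727 and 0.309 CPM of the NK gate (3, 11 and 3 UMIs in 832, 1279 and 957 barcodes, median 10641, 8578 and 7696 UMIs). A *Fscn1* UMI was found in 1.37, 1.99 and 1.08% of these barcodes and 0.361, 0.704 and 0.313% of the NK gate. In 11, 16 and 6 of them there were 10 or more *Fscn1* UMIs, against 0 in the NK gate, and of these 11, 15 and 6 had a *Ccr7* UMI, 7, 15 and 5 a *Ccl22* UMI and 9, 14 and 5 an *Il4i1* UMI. By these counts some barcodes of each library carried all 3 genes of the Ccr7 gate without being assigned to it, and the reason is not given here. The type of these barcodes was not tested.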

How the results depend on the processing

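Of 839 values of the 10 genes under an alternative, 735 stayed on their side of the threshold, 57 were no longer past it and 47 were newly past it. None of the values called in the report changed direction, and the direction of values not called there was not counted. In thinned cells of the Cxcl9 gate the median of all genes moved from -0.10 to -0.45, so a change of sign there says nothing about a gene. Thinned cells gave fewer genes past the threshold: 3004 in place of 4569 for cluster 8 against the other cDC1s, 750 in place of 1479 against cluster 10, 1185 in place of 2348 against cluster 9, 2675 in place of 4114 for early against resting cDC1s, 2755 in place of 4608 for the Ccr7 gate, 501 in place of 1114 for the Cxcl9 gate, 501 in place of 1881 between these gates, and 1281 in place of 2689 outside the table. Gates were called again on the thinned counts, thinned sums hold fewer UMIs, and fewer genes were fitted in each comparison. Between the gates these were 1048 in place of 4176 and against cluster 10 they were 1919 in place of 4229, so a lower count is not a lower share.

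With 1 library left out, which leaves fewer samples, the genes past the threshold ranged from 2989 (without sGSN-/-, 3143 without WT) to 4629 for cluster 8 against the other cDC1s. Against cluster 10 they ranged from 939 (without sGSN-/-, 950 without WT) to 1697, with 4 to 7 of the 10 genes, and against cluster 9 from 1378 (without WT) to 2525, with 5 to 8. For early against resting cDC1s they ranged from 2579 (without WT) to 3384. In the Ccr7 gate 4 (without WT) to 9 of the 10 genes passed. In the Cxcl9 gate the range was 479 (without sGSN-/-Clec9a-/-, 628 without sGSN-/-) to 723 (without WT) genes and 0 to 1 of the 10. This 1 was *Marcksl1* without sGSN-/- and *Marcks* without sGSN-/-Clec9a-/-, and not *Actb*. Between the gates the range was 1223 (without sGSN-/-) to 1766 genes, and in the barcodes outside the clustered cells 1311 (without sGSN-/-, 1391 without WT) to 2646.

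With the library as a replicate block, which uses the pairing, 9 in place of 4 members passed for early against resting cDC1s, beside 4821 of 10696 genes in place of 4114, and 5 in place of 1 in the Cxcl9 gate, beside 1045 of 10689 genes in place of 1114. It also moved *Coro1a* between the gates, *Cfl1* outside the table and members against cluster 10, as given above, and changed no other call of the 10 genes in the gates. In the Cxcl9 gate 4 members passed without the filter (1362 of 18003 genes), 3 with DESeq2 (1372 of 10689 genes), 0 without cells that carried markers of other types (822 of 10153 genes) and 0 with a gate of 2 UMIs (872 of 10596 genes), and the cause was not tested.

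Between genotypes, genes 25% above or 20% below were 110 with the 12 clusters weighted equally, 573 in cluster 8 alone and 86 in thinned cells, in place of 56, for sGSN-/- against WT, and 209, 1217 and 152 in place of 96 for sGSN-/-Clec9a-/- against sGSN-/-. In place of 0 members, equal weights gave 1 (*Marcksl1*), thinned cells 1 and the cells without the top 5% 1 (*Fscn1* in both) in the first contrast. The second gave 1 with equal weights, 1 in thinned cells and 1 without the top 5% (*Fscn1* in each), and 2 in cluster 8 alone (*Fscn1*, *Marcksl1*). *Fscn1* had ratios past these limits over all cDC1s too (1.37 and 0.239) and was not counted there because it lay below 50 CPM. For *Marcksl1* the cause was not tested. Main limits are the single pool per genotype, the small gates (22 cells in the smallest library of the Ccr7 gate among cDC1s and 18 outside the table), and the overlap of the Ccr7 gate with cluster 8, so that a p-value measures the spread between 3 libraries of different genotype.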
